A study of Mus musculus with 6 samples.

Results

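The genes followed here are 8 genes of metallothioneins and zinc transport in mouse bone-marrow-derived macrophages (BMDMs). They were chosen by name, as the rows of the deposited table whose symbol is Mt1, Mt2, Mtf1, Slc39a14, Slc39a1, Slc39a10, Slc30a1 or Slc30a5. Each symbol matched 1 of the 54532 genes listed, and all 8 were among the 12755 genes tested, those that reached 1 TPM in 2 or more of 6 RNA-seq libraries. BMDMs are macrophages grown in culture from bone marrow, here of wildtype C57BL/6 mice, in medium conditioned by L929 cells. The libraries form 3 groups of 2. Untreated cells (Untr) received neither agent, the LPS group received lipopolysaccharide (LPS, a bacterial cell-wall product that macrophages sense) at 100 ng/ml for 2 h, and the Met + LPS group received the diabetes drug metformin at 5 mM for 6 h before the same LPS stimulation. No group received metformin without LPS, so effects of the drug on resting cells were not measured. The labels give neither the age of the mice nor whether the duplicates came from separate animals, so p-values measure the spread between these cultures.

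Zinc in a cell is mostly bound to protein. Metallothioneins are small cysteine-rich proteins that bind and release zinc and copper. The transcription factor MTF-1 senses free zinc, binds metal response elements in promoters and drives metallothionein genes. Importers of the ZIP (Slc39) family carry zinc into the cytosol from outside or from organelles, and exporters of the ZnT (Slc30) family carry it out of the cytosol. Macrophages are known for moving zinc during infection and for raising metallothioneins when they meet bacterial products.

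The values are TPM, the reads of a gene relative to its length and to the sum of such values in that library. Multiplying them by exon length gave back whole reads for 95.5% to 96.2% of the values above 0, in all 25457015 to 30762753 reads per library, and the reads of the 8 genes are given below where they are few. Differences were tested with limma on log2(TPM + 1), so that log2 fold changes of genes under a few TPM are understated, and a gene was called at an adjusted p-value under 0.01. Over all tested genes the median log2 fold change was -0.48 for LPS and -0.48 for Met + LPS against Untr, but -0.03 for Met + LPS against LPS. Comparisons of the 8 genes with Untr are therefore also given after dividing each library by a median-ratio size factor (rescaling). This moved the first of these medians to -0.01. Fold changes of other named genes are by TPM only. All 8 macrophage markers examined were found in these libraries, with summed levels of 44621 to 46599 TPM in Untr, 37412 to 37903 in LPS and 30877 to 30948 in Met + LPS. Most of this sum was Lyz2, and the markers did not move alike, since Cd14 was at 911 and 998 TPM in Untr but 2639 and 2886 TPM in LPS. Of the lists for other cell types the endothelial one had the highest sum, 34.2 TPM, almost all of it Kdr. The granulocyte list, mostly Elane, summed to 20.4 to 21.5 TPM in Untr, 9.76 to 15.2 in LPS and 21.5 to 22.3 in Met + LPS. Cd4, of the T cell list, was at 2.66 to 6.78 TPM. The 5 erythroid markers summed to 0.164 TPM or less and the 4 mast cell markers to 1.56 TPM or less. Of the latter, Cpa3 was at 1.56 and 0.920 TPM in Untr and at 0.298 TPM or less in the other libraries, and Mcpt4 and Tpsb2 were at 0. The part of these marker levels in the results was not tested. In bulk RNA, fewer cells of a type and less RNA per cell cannot be told apart.

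Both metallothionein genes that BMDMs express rose after LPS and were at a lower level in Met + LPS than in LPS. Mt1 (ENSMUSG00000031765, GRCm38 chromosome 8, 94179082 to 94180327) and Mt2 (ENSMUSG00000031762, chromosome 8, 94172664 to 94173568) are neighbours on the same strand, 5514 bases apart. Mt1 was at 214 and 221 TPM in the Untr libraries, 409 and 425 TPM in LPS, and 289 and 325 TPM in Met + LPS. No library of one group reached the range of another, and the order was Untr, Met + LPS, LPS. The mean rose 1.91-fold with LPS, from 218 ± 5.10 to 417 ± 11.1 TPM (SD, n = 2 each), which is a log2 fold change of 0.93 ± 0.06 (SE, adjusted p = 1.1e-05 in limma). In Met + LPS it was 307 ± 25.7 TPM (SD, n = 2), which is 73.6% of the LPS level, a log2 fold change of -0.44 ± 0.06 (SE) against LPS (adjusted p = 0.0012 in limma) and of 0.49 against Untr (adjusted p = 2.3e-04 in limma). Without LPS replicate 2 the adjusted p of the fall against LPS was 0.0114, above the cut-off.

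Mt2 had the largest fold change with LPS of the 8 genes. It was at 8.50 and 4.99 TPM in Untr, 105 and 114 TPM in LPS, and 47.5 and 62.3 TPM in Met + LPS. These levels rest on 38 and 21 reads in Untr, 469 and 490 in LPS, and 211 and 324 in Met + LPS, so the resting level is the least certain of the 3. The groups did not overlap and were ordered as for Mt1. From 6.74 ± 2.48 TPM in Untr to 109 ± 6.65 TPM in LPS (SD, n = 2 each) the mean rose 16.2-fold, a log2 fold change of 3.87 ± 0.22 (SE, adjusted p = 6.9e-06 in limma), and only 1.21% of the tested genes had a larger absolute log2 fold change. Met + LPS held 54.9 ± 10.5 TPM (SD, n = 2), 8.14-fold above Untr (log2 fold change 2.88, adjusted p = 2.5e-05 in limma). Against LPS alone, Mt2 was lower by TPM with a log2 fold change of -0.995 (95% interval -1.53 to -0.46), and its adjusted p of 0.0103 in limma just missed the cut-off. The same difference passed the cut-off when Untr replicate 1 or Untr replicate 2 was left out of the common fit (adjusted p = 0.00713 and 0.00711), when LPS and Met + LPS were fitted without Untr (0.00725), and with voom on reads (3.2e-07), while leaving out a library of the compared groups gave 0.0229 to 0.0688, the highest without Met + LPS replicate 1.

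The ratio of the 2 metallothioneins differed between the groups. By TPM, which is per length, Mt1 exceeded Mt2 by 25.2-fold and 44.4-fold in the Untr libraries, by 3.91-fold and 3.72-fold in LPS, and by 6.08-fold and 5.22-fold in Met + LPS. The level of Mt2 relative to Mt1 is uncertain because of how the genes are annotated. Of the 588 exon bases of Mt2, 432 (73.5%) are shared with the antisense gene Gm45774, and whether the authors counted by strand, or how they assigned reads over both genes, is not given in the sources used here. Gm45774 itself had 3 and 0 reads in Untr, 22 and 20 in LPS, and 10 and 10 in Met + LPS, the same order of groups as Mt2. Of the 31-base words of the Mt2 transcripts, 41.9% occur in no other gene, against 100% for Mt1. The exon length of Mt1 (1246 bases) takes in its introns, since an annotated transcript is unspliced, whereas the transcript listed in the file has 549 bases, and its TPM is lower than it would be with that length.

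**Figure D1:**
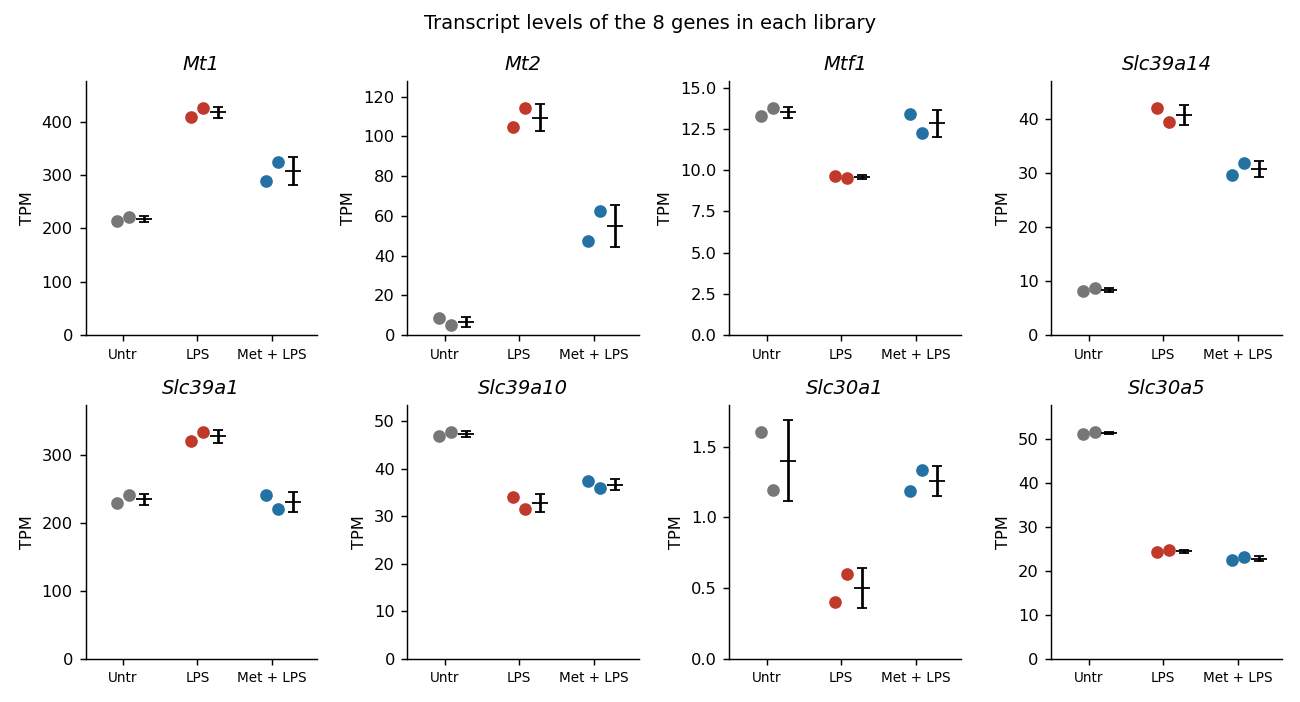
Transcript levels (TPM, linear axes from 0) of the 8 genes in the 2 untreated (grey), 2 LPS (red) and 2 Met + LPS (blue) libraries, with the mean and SD of each pair in black. Mt1, Mt2, Slc39a14 and Slc39a1 are highest in LPS, Mtf1, Slc39a10 and Slc30a1 are lowest there, and Slc30a5 stays near 22 to 25 TPM in both LPS-treated groups.

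The stretches before the RefSeq start of both genes are shown because MTF-1 sites are what the metallothionein genes are known for. The core of the metal response element was searched as TGCACNC and TGCGCNC on both strands, in windows of 300 bases from RefSeq (GRCm38.p6), 250 before to 50 after the RefSeq start. Other annotated starts of Mt1 and Mt2, and bases beyond 50 after the RefSeq start, were not searched. Cores there are not in the counts below, so the counts do not compare the whole promoters of the genes. Such windows were at hand for 7 of the 8 genes. The 250 bases before the start follow, 5′ to 3′ on the plus strand, with cores on either strand in capitals. Mt1 is chr8:94178839-94179088 and Mt2 is chr8:94172368-94172617.
Mt1: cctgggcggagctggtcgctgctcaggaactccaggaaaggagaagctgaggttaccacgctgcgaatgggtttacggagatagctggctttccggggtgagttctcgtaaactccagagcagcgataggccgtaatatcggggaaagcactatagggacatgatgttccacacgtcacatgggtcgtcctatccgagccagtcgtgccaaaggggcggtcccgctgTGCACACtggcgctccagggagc
Mt2: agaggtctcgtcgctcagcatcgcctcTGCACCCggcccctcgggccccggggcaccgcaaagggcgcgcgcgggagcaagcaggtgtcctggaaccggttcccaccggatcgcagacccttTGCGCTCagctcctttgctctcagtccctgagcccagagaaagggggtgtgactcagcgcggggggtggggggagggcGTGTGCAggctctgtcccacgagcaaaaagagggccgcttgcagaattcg
The Mt2 stretch holds 3 cores, as do or exceed 1.26% of all 32851 promoter windows in the same 250 bases, and the Mt1 stretch holds 1, as do or exceed 21.4%. In the 50 bases after the start Mt1 has another 2, TGCACTC from base 3 and TGCGCTC from base 21, and Mt2 has another 1, TGCGCAC on the minus strand from base 5. Over the whole window Mt2 thus has 4 cores and Mt1 has 3, and 0.517% and 1.97% of all windows have at least as many. Slc30a1 has 2 cores (7.11% of windows have at least as many) and Slc30a5 has 1 (25.7%), while the windows of Mtf1, Slc39a1 and Slc39a10 have none. None of the cores of one window overlap each other. These are matches of letters, and binding was not measured.

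Mtf1 (ENSMUSG00000028890, chromosome 4, 124802104 to 124849800), the zinc sensor itself, was lowest by TPM where the metallothioneins were highest, although after rescaling LPS and Untr were level. Its level was 13.3 and 13.8 TPM in Untr, 9.68 and 9.51 TPM in LPS, and 13.4 and 12.3 TPM in Met + LPS. Both LPS libraries lay below the other 4, which overlapped one another. The log2 fold change between LPS and Untr was -0.46 ± 0.06 (SE, adjusted p = 4.7e-04 in limma), close to the median of all tested genes, and after rescaling it was 0.03 (adjusted p = 0.703). Mtf1 was 1.34-fold higher in Met + LPS than in LPS, from 9.59 ± 0.119 to 12.8 ± 0.801 TPM (SD, n = 2 each), which is a log2 fold change of 0.39 ± 0.06 (SE, adjusted p = 0.00293 in limma) that was 0.40 after rescaling. This call held without Met + LPS replicate 2 (adjusted p = 0.00649) and was lost when any other library was left out, with adjusted p-values of 0.0155 and 0.0192 without LPS replicate 1 or 2, 0.0164 without Met + LPS replicate 1, and 0.0134 and 0.0135 without Untr replicate 1 or 2. Against Untr, Met + LPS had a log2 fold change of -0.07 (95% interval -0.22 to 0.08, adjusted p = 0.331 in limma), which became 0.43 after rescaling (adjusted p = 8.1e-04). Of the Mtf1 exons 8.10% are shared with 1110065P20Rik on the opposite strand, which had 31 to 79 reads per library against 618 to 968 for Mtf1.

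Of the 3 importers, Slc39a14 showed the strongest induction. Slc39a14 (ENSMUSG00000022094, chromosome 14, 70303469 to 70351425) encodes ZIP14, a carrier of zinc, iron and manganese known to be raised by inflammatory cytokines in liver. It was at 8.15 and 8.64 TPM in Untr, 42.0 and 39.5 TPM in LPS, and 29.8 and 31.8 TPM in Met + LPS. The 3 groups were well apart. The mean rose 4.86-fold with LPS, from 8.40 ± 0.344 to 40.8 ± 1.80 TPM (SD, n = 2 each), which is a log2 fold change of 2.15 ± 0.06 (SE, adjusted p = 2.8e-07 in limma). Met + LPS held 30.8 ± 1.46 TPM (SD, n = 2), 75.5% of the LPS level, a log2 fold change of -0.39 ± 0.06 (SE) against LPS (adjusted p = 0.00209 in limma) and of 1.76 against Untr (adjusted p = 7.7e-07). The fall against LPS had an adjusted p of 0.0162 without LPS replicate 1 and of 0.0152 without Met + LPS replicate 1.

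Slc39a1 (ENSMUSG00000052310, chromosome 3, 90248172 to 90253612) encodes ZIP1, a zinc importer of the plasma membrane found in most cells, and was the most abundant importer here. Its levels were 229 and 241 TPM in Untr, 321 and 334 TPM in LPS, and 241 and 219.9 TPM in Met + LPS. Only the LPS libraries stood apart, and Untr and Met + LPS overlapped. LPS raised the mean 1.39-fold (log2 fold change 0.48 ± 0.05, SE, adjusted p = 1.5e-04 in limma), and Met + LPS was at 70.4% of the LPS level (log2 fold change -0.51 ± 0.05, SE, adjusted p = 4.3e-04 in limma). Met + LPS and Untr differed by a log2 fold change of -0.03 (95% interval -0.16 to 0.10, adjusted p = 0.623), but by 0.51 after rescaling (adjusted p = 1.6e-04). Of the 31-base words of Slc39a1, 72.3% are its own, and its pseudogene Slc39a1-ps had at most 2 reads in any library against 4075 to 5773 for Slc39a1.

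Slc39a10 (ENSMUSG00000025986, chromosome 1, 46807544 to 46892852) encodes ZIP10, an importer whose gene MTF-1 is known to repress when zinc is high. It was at 46.9 and 47.8 TPM in Untr, 34.1 and 31.5 TPM in LPS, and 37.4 and 35.9 TPM in Met + LPS. The Untr libraries were highest and the LPS libraries lowest, without overlap. The log2 fold change was -0.52 ± 0.05 (SE) between LPS and Untr (adjusted p = 8.8e-05 in limma), near the median of all tested genes, and -0.01 after rescaling (adjusted p = 0.934). Between Met + LPS and LPS it was 0.16 (95% interval 0.03 to 0.28, adjusted p = 0.0423 in limma), short of the cut-off. Met + LPS was below Untr by TPM (log2 fold change -0.36, adjusted p = 5.5e-04) and at 0.17 after rescaling (adjusted p = 0.0199).

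The 2 exporters were both lower by TPM after LPS. Slc30a1 (ENSMUSG00000037434, chromosome 1, 191906767 to 191913247) encodes ZnT1, the zinc exporter of the plasma membrane and a known target of MTF-1. It was the scarcest of the 8 genes and reached 1 TPM in Untr and Met + LPS only, at 1.61 and 1.20 TPM in Untr, 0.401 and 0.601 TPM in LPS, and 1.19 and 1.34 TPM in Met + LPS. These values stand for 64 and 45 reads, 16 and 23 reads, and 47 and 62 reads, and the 16 reads of LPS replicate 1 have an exact 95% Poisson interval of 9.15 to 26.0, which covers counting error only. Both LPS libraries were below the other 4 and below 1 TPM, so the gene entered the test through the groups where it was higher. The LPS mean was 35.7% of the Untr mean. On the log2(TPM + 1) scale the log2 fold change was -0.68 ± 0.16 (SE, adjusted p = 0.00566 in limma). With voom on reads it was -1.47 (adjusted p = 1.2e-04). Without the 1 TPM filter, or with LPS and Untr fitted without Met + LPS, the gene was not called (adjusted p = 0.0118 and 0.01325 in limma). The call was lost after rescaling (log2 fold change -0.42, adjusted p = 0.0472) and when any library other than Untr replicate 2 was left out, with adjusted p-values of 0.0297 without LPS replicate 1, 0.0281 without Untr replicate 1 and 0.0113 to 0.0123 without the others. Met + LPS held 2.52-fold the LPS level, 1.26 ± 0.106 against 0.501 ± 0.142 TPM (SD, n = 2 each). The log2 fold change was 0.59 (95% interval 0.22 to 0.97), with an adjusted p of 0.0199 in limma, and with voom it was 1.34 (adjusted p = 6.4e-04). Against Untr it was -0.08 (95% interval -0.46 to 0.29, adjusted p = 0.638 in limma) and 0.22 after rescaling. Of its exon bases 8.92% are shared with the antisense gene 1700034H15Rik, which had no more than 2 reads in any library.

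Slc30a5 (ENSMUSG00000021629, chromosome 13, 100802648 to 100833427) encodes ZnT5, which loads zinc into the secretory pathway for enzymes made there. It was at 51.3 and 51.7 TPM in Untr, 24.2 and 24.7 TPM in LPS, and 22.5 and 23.2 TPM in Met + LPS. LPS lowered it to 47.5% of the Untr level, a log2 fold change of -1.04 ± 0.04 (SE, adjusted p = 1.5e-06 in limma) that was -0.53 after rescaling (adjusted p = 4.3e-05). It was the only one of the 8 genes that was called lower than Untr under both scalings, in LPS as in Met + LPS (log2 fold change -1.14, adjusted p = 1.1e-06 in limma, and -0.61 after rescaling). Between Met + LPS and LPS the log2 fold change was -0.10 (95% interval -0.20 to 0.00486, adjusted p = 0.104 in limma), the smallest of the 8.

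**Figure D2:**
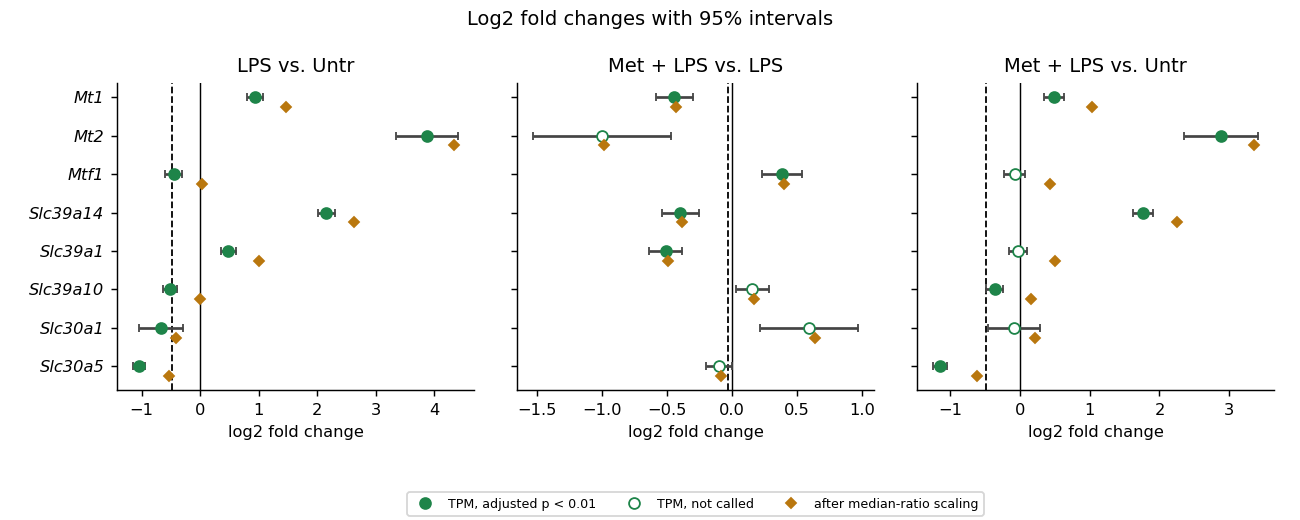
Log2 fold changes of the 8 genes in the 3 comparisons, from TPM with 95% intervals (circles, filled where the adjusted p-value is under 0.01) and after median-ratio rescaling (diamonds). The dashed line is the median of all tested genes (-0.48, -0.03 and -0.48), and the rescaling moves the genes in both comparisons with Untr while leaving Met + LPS vs. LPS nearly as it was.

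Counted together, all 8 genes were called between LPS and Untr, where 76.3% of all tested genes were. The LPS and Untr libraries did not overlap for any of the 8, nor did they for 91.6% of all tested genes. The 4 higher genes were Mt1, Mt2, Slc39a14 and Slc39a1 (16.2% of all tested genes were called higher), and the 4 lower were Mtf1, Slc39a10, Slc30a1 and Slc30a5 (60.1% were called lower). After rescaling the same 4 were higher and Slc30a5 alone was lower, so that 5 of 8 were called where 58.3% of all tested genes were (30.6% higher, 27.6% lower). Mt2 and Slc39a14 also passed the study's fold-change cut-off, a log2 fold change of 2 or more in size, as did 6.08% of all tested genes. The median log2 fold change of the 8 genes was 0.01. By adjusted p-value 7 of the 8 were called without the 1 TPM filter, where 40.0% of the genes so tested were. LPS and Untr fitted without Met + LPS also gave 7, against 74.7% of all tested genes. The gene lost was Slc30a1 in both fits.

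With metformin before LPS, 4 of the 8 genes were called against LPS alone, as were 32.6% of all tested genes. The libraries of the compared groups were apart for each of the 8 genes, and for 73.8% of all tested genes. Mt1, Slc39a14 and Slc39a1 were lower (18.0% of all tested genes were) and Mtf1 was higher (14.5% were). The count was 2, both lower, without LPS replicate 1, without LPS replicate 2 or without Met + LPS replicate 1, where 21.6%, 20.1% and 20.9% of all tested genes were called. The study's cut-off for this comparison was a log2 fold change of 0.7 or more in size beside the adjusted p-value. Past it limma gave 0 of the 8, against 8.28% of all tested genes. In limma 7 had an unadjusted p-value under 0.05, and voom on reads gave 2 past both cut-offs, Mt2 and Slc30a1. The shares of all tested genes were not counted for these 7 and 2, so the numbers show no trait of the 8 genes. Past both cut-offs limma gave 1, Mt2, without Untr replicate 1 or without Untr replicate 2. On the adjusted p-value alone voom called 6 of the 8, and 41.7% of all genes it tested. The median log2 fold change of the 8 genes was -0.24.

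Met + LPS still differed from Untr in 5 of the 8 genes, against 75.1% of all tested genes, and these were the genes whose Met + LPS and Untr libraries did not overlap (90.7% of all tested genes). Mt1, Mt2 and Slc39a14 were higher (16.3% of all tested genes were called higher) and Slc39a10 and Slc30a5 were lower by TPM (58.8% were called lower). After rescaling 6 were called, where 63.1% of all tested genes were. Of these 6, 5 were higher (33.4% of all tested genes were), which were Mt1, Mt2, Slc39a14, Slc39a1 and Mtf1. The rescaled log2 fold change was 1.03 for Mt1, 3.36 for Mt2 and 2.25 for Slc39a14. Only Mt2 passed a log2 fold change of 2, as did 5.35% of all tested genes, and after rescaling Slc39a14 did too. The 3 comparisons share libraries, so they are not independent of one another.

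The rest of the zinc-handling genes were taken from a list of 33 that holds the 8, with the whole ZIP and ZnT families, the metallothioneins and a few zinc-binding proteins. Of the 25 others, 17 were tested. Mt3 had 8 reads over all libraries, and Mt4 had none, which allows up to 3 reads per library, or 1.05 TPM. Slc30a2, Slc30a3, Slc30a8 and Slc30a10 had no reads in any library. BMDMs thus had reads for 13 importers at the tested level and for 6 exporters. Between LPS and Untr 4 of the 17 were called higher and 5 lower, where 16.2% and 60.1% of all tested genes were, and after rescaling 7 were higher and 2 lower, where 30.6% and 27.6% were. Of the 17, 5 were higher and 2 lower in Met + LPS than in LPS under both scalings, where 14.5% and 18.0% of all tested genes were by TPM. Their median log2 fold change was 0.17. Slc39a2, among these 5 and among the 6 higher genes below, reached 1 TPM in Met + LPS only and had to differ. Of the list of 33, 11 genes were called in this comparison (6 higher, 5 lower), against 3 without LPS replicate 1, LPS replicate 2 or Met + LPS replicate 1 and 5 without each of the others, while the share of all tested genes called fell from 32.6% to between 20.1% and 21.6%.

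Slc39a3, which encodes the plasma membrane importer ZIP3, fell most of the ZIP genes with LPS, from 40.6 ± 0.709 to 15.0 ± 0.0683 TPM (SD, n = 2 each), which is a log2 fold change of -1.38. Slc39a8, which encodes ZIP8, an importer known to be induced by NF-κB, rose from 10.2 to 15.6 TPM with LPS and to 19.4 TPM in Met + LPS, with log2 fold changes of 0.57 against Untr for LPS and 0.30 for Met + LPS against LPS (adjusted p = 0.0089 in limma). Slc39a14 and Slc39a8 are both known as inflammation-induced importers, and in Met + LPS the first was lower and the second higher than in LPS. The largest log2 fold change of a ZIP gene between Met + LPS and LPS was that of Slc39a2, which encodes ZIP2, at 0.87 (adjusted p = 0.0068), from 0.408 to 1.59 TPM. Slc39a2 was the only gene of the list of 33 to pass both of the study's cut-offs in this comparison, on 124 reads over all libraries. It reached 1 TPM in the 2 Met + LPS libraries only, so it entered the test through the group where it is high and had to differ. Slc39a13, a ZIP of the secretory pathway, had -0.40 (adjusted p = 0.004).

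Among the exporters Slc30a4, which encodes ZnT4, a carrier into endosomes and lysosomes, was the most induced by LPS. It rose from 2.25 to 8.19 TPM with LPS, a log2 fold change of 1.50, and was at 5.18 TPM in Met + LPS, -0.57 against LPS (adjusted p = 0.0029 in limma). Slc30a6, which encodes the partner of ZnT5 in the early secretory pathway, rose with LPS (log2 fold change 0.51) where Slc30a5 fell. Of the 13 ZIP genes tested, 3 were called higher and 5 lower with LPS, and of the 6 ZnT genes 3 were higher and 3 lower (16.2% and 60.1% of all tested genes were). After rescaling the counts were 4 and 2 for ZIP and 3 and 1 for ZnT (30.6% and 27.6% of all). In Met + LPS 4 ZIP genes were higher and 3 lower than in LPS, and 1 ZnT gene was higher and 1 lower (14.5% and 18.0% of all). The 4 include Slc39a2, which reached 1 TPM in Met + LPS only and had to differ.

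**Figure D3:**
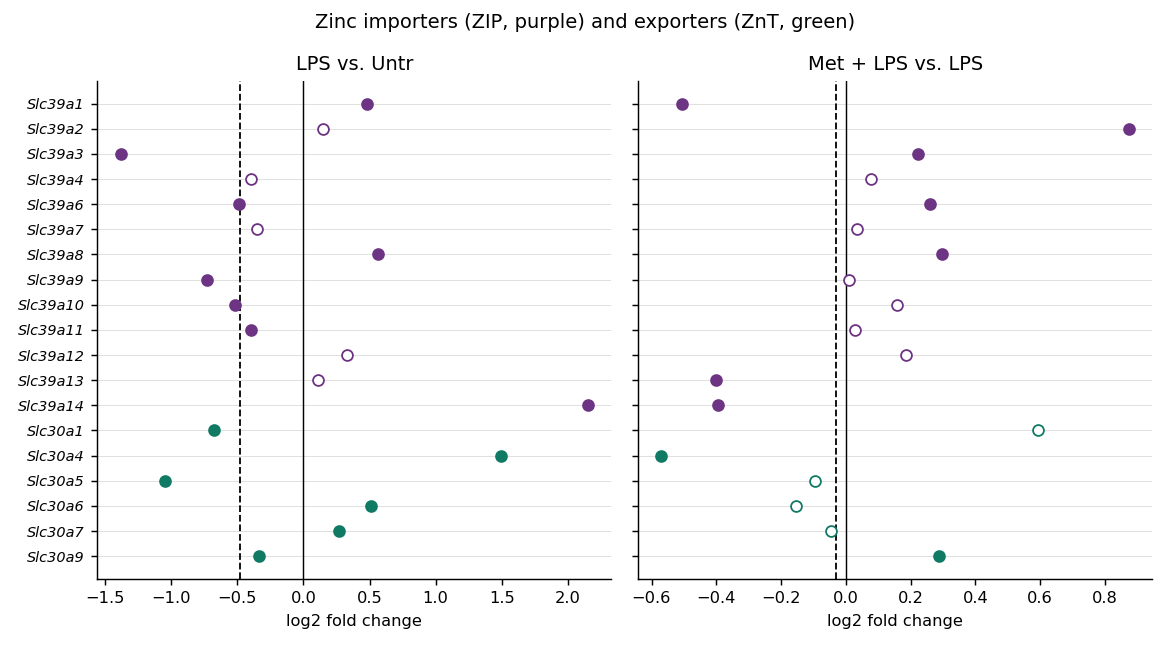
Log2 fold changes (TPM as deposited) of the 13 ZIP importers (purple) and 6 ZnT exporters (green) tested, for LPS vs. Untr and Met + LPS vs. LPS, filled where the adjusted p-value is under 0.01, with the median of all tested genes dashed. Slc39a14 and Slc30a4 lie farthest to the right with LPS and to the left of 0 in Met + LPS vs. LPS, and Slc39a3 and Slc30a5 lie farthest to the left with LPS.

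Levels between genes depend on the length they are divided by, which in the TPM is the sum of all exons. By TPM the order in Untr was Slc39a1 (235 TPM), Mt1 (218), Slc30a5 (51.5), Slc39a10 (47.3), Mtf1 (13.5), Slc39a14 (8.40), Mt2 (6.74) and Slc30a1 (1.40), and of these neighbours Slc39a14 and Mt2 overlapped. In LPS it was Mt1 (417 TPM), Slc39a1 (327), Mt2 (109), Slc39a14 (40.8), Slc39a10 (32.8), Slc30a5 (24.4), Mtf1 (9.59) and Slc30a1 (0.501), and no neighbours overlapped. Met + LPS had the order of LPS, except that Slc39a10 (36.7 TPM) was above Slc39a14 (30.8). The transcripts listed in the file are shorter than the summed exons for Mt1 (549 against 1246 bases), Slc30a5 (3179 against 7294) and Slc39a14 (4926 against 10550), and as long for Slc39a1 and Slc30a1. Dividing by the listed length, an alternative chosen after seeing the data, turned the first pair, with Mt1 at 494 and Slc39a1 at 235 in Untr, and Mt1 was then highest in every group. It also put Slc39a14 (18.0) above Mtf1 (15.9) in Untr, Slc30a5 (56.1) above Slc39a10 (36.3) in LPS, and Slc39a14 (65.9) above Mt2 (63.1) in Met + LPS. Slc30a1 was lowest in each group by either length.

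Other genes followed the profiles of the induced members across the 6 libraries closely. Likeness was measured as the root mean square difference of log2(TPM + 1), each gene taken relative to its Untr mean. For Mt1 the 5 nearest tested genes were Dram1 (0.0484), Aida (0.0547), Fnbp4 (0.0573), Sinhcaf (0.0607) and Il2rg (0.0680). For Slc39a14 they were Msr1 (0.0539), Mtmr14 (0.0550), Gch1 (0.0572), Sh3bgrl2 (0.0578) and Tnip1 (0.0639). Mt2 had no neighbour so near. Its Untr libraries, at 38 and 21 reads, differ, which adds to its distance from any gene with steadier Untr levels. Nearest to Mt2 were the chemokine gene Ccl8 (0.227), the interferon-induced GTPase gene Igtp (0.240) and the cytokine gene Il15 (0.242). The interferon-induced gene Usp18 (0.245) and Snn (0.248) came next.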

How the data were processed

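The authors aligned single-end poly-A reads to GRCm38 (annotation release 94) with STAR 2.6.1d, used SAMtools 1.9, counted reads per gene with featureCounts of Subread 1.6.3, and deposited TPM per library without pooling. How counts became TPM, and the strand setting, are not given in the sources used here. TPM hide the total RNA per cell.

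Genes reaching 1 TPM in 2 or more of the 6 libraries were tested with limma 3.58.1 (R 4.3.3; lmFit, eBayes with a trend) on log2(TPM + 1), all libraries in a common fit with 3 residual degrees of freedom, with Benjamini-Hochberg adjustment over 12755 genes. With 2 libraries against 2 an exact two-sided permutation test cannot go below p = 0.333. Rounding TPM times GENCODE exon length recovered reads (95.5% to 96.2% of values above 0 within 0.02 of a whole number) for limma voom. Scripts used Python 3.11.15, and the fit was tested on simulated data. The 8 genes and all lists were chosen with earlier results of these data known. Named genes were the 8, listed zinc and copper genes, and the 5 nearest profiles. Alternatives were other pseudocounts, filters, scaling, fits, cut-offs and left-out libraries.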

Additional observations from a re-analysis of the deposited data

How the results depend on the processing

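With median-ratio scaling 5 of the 8 genes were called between LPS and Untr (4 higher), 2 passed both cut-offs between Met + LPS and Untr, and signs turned for Mtf1 between LPS and Untr (0.0286) and for Mtf1 (0.43), Slc39a1 (0.51), Slc39a10 (0.17) and Slc30a1 (0.22) between Met + LPS and Untr. Leaving out each library gave -0.0939 to 0.0358 for Slc39a1 and -0.205 to 0.0399 for Slc30a1 in that comparison. Between Met + LPS and LPS the called genes numbered 2 to 4 with a library left out and 7 at an adjusted p-value of 0.05. Those past both cut-offs numbered 1 in a fit of the compared groups only, with a minimum of 5 TPM and at 0.05, 2 with voom and 0 to 1 with a library left out. Shares of all tested genes were not counted at 0.05, nor past both cut-offs in these settings. Of the zinc-handling list, 11 were called between Met + LPS and LPS, against 5 with the compared groups only, 5 without a filter, 7 without a trend and 3 to 5 with a library left out. In each of these fits the share of all tested genes called was lower too. The drop in the counts therefore shows no trait of the list, and its cause was not tested. With the replicate number as a block 7, 4 and 5 of the 8 genes were called in the 3 comparisons, the loss being Slc30a1 between LPS and Untr (adjusted p = 0.0115 in limma). The share of all tested genes called was also slightly lower with the block in each comparison. Same-numbered libraries deviated from their group means with correlations over genes of -0.00365, 0.0284 and 0.00624. These correlations show little shared deviation and cannot tell whether same-numbered libraries came from the same mouse or preparation. Depth limits Slc30a1 and resting Mt2.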

Other observations

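Metallothioneins also bind copper, and copper-handling genes were read from a list of 10, of which 8 were tested. Between Met + LPS and LPS 2 were called higher and 4 lower, under both scalings, where 14.5% and 18.0% of all tested genes were by TPM, with a median log2 fold change of -0.24 against -0.03 over all tested genes. Cox17, a copper chaperone of mitochondria, was higher, from 11.6 to 17.1 TPM (log2 fold change 0.53, adjusted p = 5.1e-04 in limma), as was the copper pump gene Atp7a (0.27). Ccs, the copper chaperone of superoxide dismutase, was lower, from 39.9 to 27.8 TPM (log2 fold change -0.51, adjusted p = 2.5e-04 in limma), with Atox1 (-0.31), Slc31a2 (-0.33) and Sco1 (-0.39). Slc31a2, which encodes a copper transporter of endosomes, had been raised by LPS from 83.6 to 310.3 TPM.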
